A study of Mus musculus with 2 samples.

Results

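T cells of mouse epididymal fat were compared between 2 sets of 3 hashtag populations, tags A0301, A0302 and A0303 against tags A0308, A0309 and A0310. Stromal vascular cells, which remain once the fat cells are removed, were taken from male wild-type C57BL/6J mice on 1 of 3 regimens: 8 weeks of high-fat diet, 16 weeks of high-fat diet, or 16 weeks of standard diet. Hashtag antibodies, which carry a DNA barcode, were used at 2.5 µg/ml to mark the suspensions before pooling, and 20000 pooled cells went into a BD Rhapsody run with TAS-Seq amplification. No source used here ties a tag to a diet or an animal, so both sets are named by their tags, and p-values measure only the spread between tagged suspensions of 1 pool, which may be technical. The number of animals behind a suspension is not given in the sources used here. Values of a set are given in order of hashtag number.

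A cell counted as a T cell if at most 25% of its reads were mitochondrial, if at least 2 of the 5 markers Cd3d, Cd3g, Trac, Trbc2 and Lat reached 100 CPM, that is 100 reads in 1000000 reads of that cell, and if C1qa, C1qb, Lum, Dpt and Cdh5, which mark macrophages, fibroblasts and endothelium, summed to under 500 CPM. This rule found 371 T cells among the 6974 cells of the 6 tags under the mitochondrial limit, 171 in the A0301-A0303 set and 200 in the A0308-A0310 set. The table holds 12040 columns, 11750 of them cells of 9 tags. The A0301-A0303 populations held 62, 48 and 61 T cells, and the A0308-A0310 populations held 86, 54 and 60. Near the limits, 110 of the 371 cells had exactly 2 markers, while 142 cells with exactly 1 marker were not taken; 3 cells taken had 400 to 500 CPM of the other-cell markers and 9 cells not taken had 500 to 600.

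T cells carry an antigen receptor signalling through the CD3 complex, built from alpha and beta chains in most of them and from gamma and delta chains in a minority. Fat is known for several resident kinds: CD8 T cells that kill target cells and secrete interferon gamma, regulatory T cells that carry the IL-33 receptor and restrain inflammation, and gamma-delta T cells that make IL-17. Fat also holds innate lymphoid cells and natural killer cells, which share many genes with T cells and lack a rearranged receptor.

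The T cell label was borne out by genes the rule did not use, with limits. Of the 371 cells, 67.9% had at least 100 CPM of Thy1, 57.1% of Trbc1, the other beta-chain constant gene, and 45.6% of Cd3e, the epsilon chain of CD3. The B cell gene Cd79a reached that level in 0 of 371 cells, which allows a share of up to 0.809%, the macrophage genes Adgre1 and Csf1r in 1.35% and 1.08%, and C1qc, the partner of 2 genes of the rule, in 10.2%. The median T cell had 15299 reads, at which 100 CPM is under 2 reads, so cells that use a gene can be missed. Summed reads of T cells per population were 1145648, 977327 and 1023211 in the A0301-A0303 set and 1569839, 832076 and 926859 in the A0308-A0310 set. The sets also differed in ways outside the T cells' own genes. The median hashtag count of a T cell was 4609, 5965.5 and 4976 in the A0301-A0303 populations and 1538, 1537.5 and 754 in the A0308-A0310 populations, and the share of cells over the mitochondrial limit was 5.40%, 6.04% and 5.61% in A0301-A0303 against 10.7%, 13% and 20.8% in A0308-A0310. At least 3 of the 5 markers were found in 67.7%, 58.3% and 63.9% of T cells in the A0301-A0303 populations and in 77.9%, 72.2% and 76.7% in the A0308-A0310 populations. The part of these differences in the results below was not tested.

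The T cell share of all cells overlapped between the sets, while their share of leukocytes did not. T cells made up 7.53%, 4.98% and 5.76% of the cells under the mitochondrial limit in the A0301-A0303 populations, against 5.98%, 3.67% and 4.93% in the A0308-A0310 populations. The ranges overlapped, and the mean shares of 6.09% ± 1.31 and 4.86% ± 1.16 (SD, n = 3 each) differed by 1.23 percentage points (exact permutation test, two-sided, p = 0.4, where 3 against 3 cannot go below 0.1). Among cells with at least 100 CPM of Ptprc, the gene of the leukocyte surface protein CD45, T cells were 29.9%, 24.6% and 19.7% in the A0301-A0303 populations and 10.8%, 5.63% and 7.99% in the A0308-A0310 populations. Those ranges did not overlap, and the difference of 16.6 points had the smallest p that the design allows (exact permutation test, two-sided, p = 0.1). Cells with at least 500 CPM of the macrophage genes C1qa and C1qb together, and under that of Lum and Dpt, numbered 160 in the A0301-A0303 set and 1716 in the A0308-A0310 set.

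CD8 cells were a smaller part of the T cells in the A0301-A0303 populations. Cd8a, the alpha chain of the CD8 co-receptor that marks cytotoxic T cells, reached 100 CPM in 8.06%, 8.33% and 3.28% of T cells in the A0301-A0303 populations, against 26.7%, 22.2% and 61.7% in the A0308-A0310 populations. Population A0310 stood above the other 2 of its set, and all 3 lay above the A0301-A0303 range. Cd8b1, the beta chain, parted the sets in the same direction, with 9.68%, 8.33% and 8.20% in A0301-A0303 against 30.2%, 25.9% and 58.3% in A0308-A0310. Over all cells of a set, Cd8a was found in 6.43% of A0301-A0303 T cells and 36.0% of A0308-A0310 T cells, at median depths of 15767 and 14831 reads. In cells with at least 500 CPM of the fibroblast genes Lum and Dpt together, which should lack it, Cd8a was found in 0.143% in A0301-A0303 and 0.880% in A0308-A0310, at median depths of 41758 and 44605 reads.

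Cells with markers of regulatory and type 2 lymphocytes made up more of the T cells in the A0301-A0303 populations. Foxp3, the transcription factor that defines regulatory T cells, reached 100 CPM in 17.7%, 22.9% and 14.8% of T cells there, against 3.49%, 3.70% and 0% in the A0308-A0310 populations, where the 0 of 60 T cells of population A0310 allows a share of up to 5%. Il1rl1, the IL-33 receptor ST2, was found in 33.9%, 39.6% and 29.5% in A0301-A0303 against 10.5%, 0% and 3.33% in A0308-A0310, and Il2ra, the high-affinity IL-2 receptor chain CD25, in 50.0%, 45.8% and 42.6% in A0301-A0303 against 5.81%, 13% and 5% in A0308-A0310. None of these 3 pairs of ranges overlapped. In cells with Lum or Dpt, Foxp3 was found in 0.143% of those of A0301-A0303 and 0.220% of those of A0308-A0310, Il1rl1 in 0.573% of A0301-A0303 and 0.660% of A0308-A0310, and Il2ra in 2.15% of A0301-A0303 and 1.10% of A0308-A0310. Il1rl1 was also found in 10.6% of A0301-A0303 and 4.08% of A0308-A0310 cells with C1qa or C1qb, whose median depths were 36312 and 74283 reads, so the 5.50% over the A0308-A0310 T cells is close to the share in another cell type.

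Over the 6 populations, most cells with Foxp3 also had Il1rl1. Of the 36 cells with Foxp3, 83.3% had Il1rl1 and 83.3% had Klrg1, an inhibitory receptor of differentiated lymphocytes. Of the 69 cells with Il1rl1, 43.5% had Foxp3, 34.8% had Cd3e and 1.45% had Trdc, the delta-chain constant gene. Trac, the alpha-chain constant gene, was found in 69.6% of them. It is a marker of the rule that chose the cells, so that share is partly built in. Il5 was found in 1 of these 69 cells and Il13 in 0, which allows a share of up to 4.35% for Il13. The cells with Il1rl1 but without Foxp3, with or without Trac, were not told apart from innate lymphoid cells, which carry the same receptor.

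Gamma-delta cells formed the other group with a larger share in the A0301-A0303 populations. Trdc was found in 25.8%, 27.1% and 29.5% of T cells there, against 10.5%, 16.7% and 8.33% in the A0308-A0310 populations. Cd163l1, a scavenger receptor gene used as a marker of IL-17-type gamma-delta T cells in mice, was found in 27.4%, 25% and 31.1% in A0301-A0303 against 4.65%, 11.1% and 8.33% in A0308-A0310. Of the 63 cells with Cd163l1, 90.5% had Trdc and 11.1% had Trac. Cxcr6, a chemokine receptor of tissue-resident T cells, was found in 33.9%, 31.3% and 37.7% in A0301-A0303 against 18.6%, 18.5% and 15.0% in A0308-A0310, with all A0301-A0303 values above all A0308-A0310 values.

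Of 20 markers whose shares were compared, 12 had ranges that did not overlap, 7 of them higher in the A0301-A0303 populations (Foxp3, Il2ra, Trdc, Cd163l1, Il1rl1, Gata3 and Cxcr6) and 5 higher in the A0308-A0310 populations (among them Cd8a, Cd8b1, Gzmk and Tbx21). Each of the 12 had the smallest p the design allows (exact permutation test, two-sided, p = 0.1, adjusted over the 20 markers 0.167), so none passed 0.05. With at least 3 rule markers asked of a cell, 9 of the 20 ranges did not overlap. Cd4, the co-receptor of helper and regulatory T cells, was found in 14.5%, 10.4% and 14.8% of T cells in the A0301-A0303 populations and in 20.9%, 14.8% and 3.33% in the A0308-A0310 populations, with overlapping ranges. Pdcd1, the inhibitory receptor PD-1, and Mki67, a gene of dividing cells, overlapped as well.

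**Figure D1:**
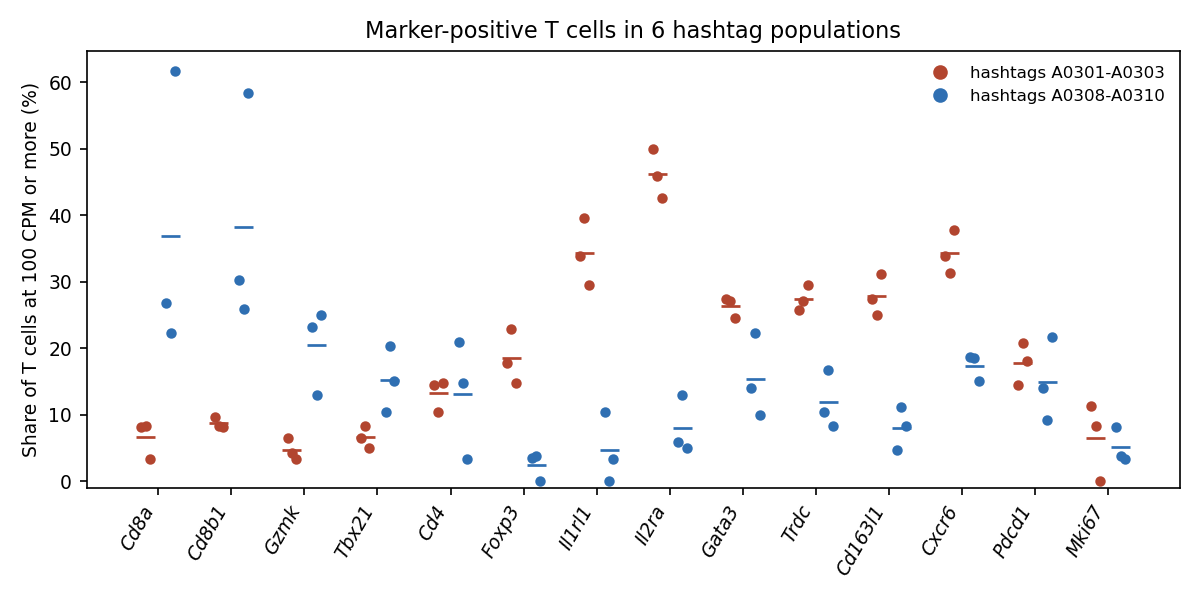
Share of T cells (%) with at least 100 CPM of each marker gene. Points are the 3 hashtag populations of each set, red for A0301-A0303 on the left and blue for A0308-A0310 on the right of each gene, and bars are means of 3. Cd8a spans 3.28% to 8.33% in red and 22.2% to 61.7% in blue, while Il2ra spans 42.6% to 50.0% in red and 5% to 13% in blue.

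For levels, the reads of the T cells of each tag were summed, scaled to CPM with TMM factors and tested with edgeR's quasi-likelihood test, with Benjamini-Hochberg adjustment over 8992 genes and a limit of 0.05. In such sums, fewer cells of a kind and less RNA per cell cannot be told apart, so the shares above stand beside the levels below. At that limit 28 genes were higher in the A0301-A0303 set (0.311% of the genes tested) and 11 were lower (0.122%), and all 39 had ranges that did not overlap, which held for 724 genes higher (8.05%) and 744 genes lower (8.27%) in all. The median log2 fold change of all genes was -0.01. The number of calls depended on every population: without A0301, A0302 or A0303, 1, 0 and 4 genes were called, and without A0308, A0309 or A0310, 2, 16 and 14. An unadjusted p under 0.05 was found for 763 genes. Counts over the gene lists below stand beside these shares of all genes. The lists were chosen with earlier results of these data known, so their counts and medians are descriptions and no independent support.

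**Figure D2:**
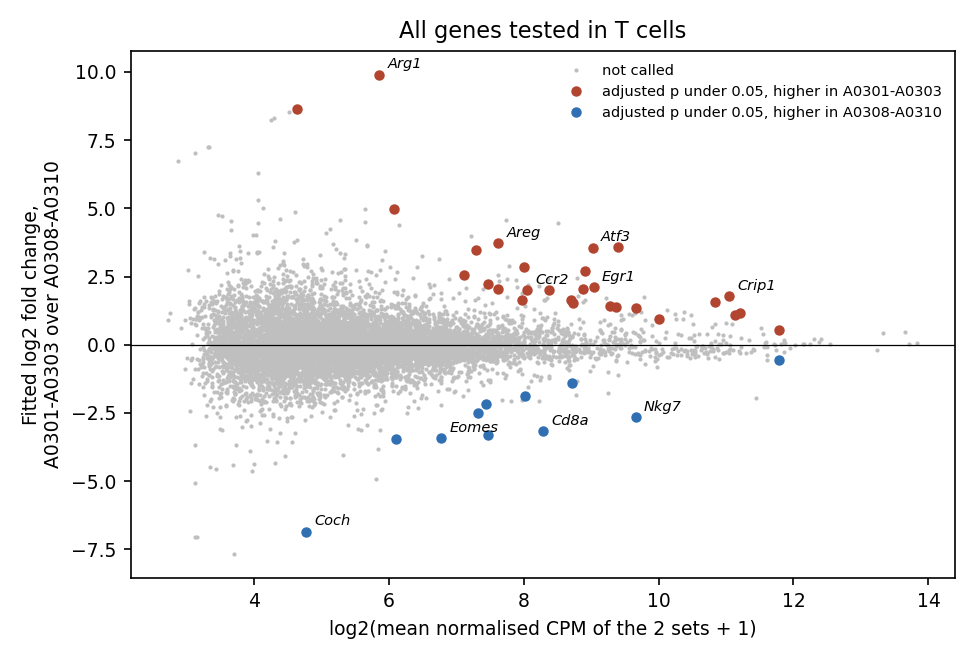
Fitted log2 fold change of A0301-A0303 over A0308-A0310 (vertical) against the log2 of the mean normalised CPM of both sets plus 1 (horizontal), 1 point per gene tested in T cells. Red marks the 28 genes called higher in A0301-A0303 and blue the 11 called higher in A0308-A0310. Crip1 lies among the abundant genes with a log2 fold change of 1.77, and Arg1, listed at 0 in A0308-A0310, has a fitted value that is no bound.

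Nkg7, Ifng, Eomes and Cd8a, genes of cytotoxic T cells, fell in the A0301-A0303 populations. Nkg7, a granule protein of cytotoxic lymphocytes, had 367.7, 139 and 152 CPM in the A0301-A0303 populations, against 1330, 1359 and 1499 CPM in the A0308-A0310 populations, a log2 fold change of -2.66 ± 0.35 (SE; edgeR adjusted p = 0.0171). Population A0301 had the highest value of its set and still lay far under the A0308-A0310 range. It was found at any level in 12, 7 and 12 cells of A0301-A0303 and in 58, 28 and 45 of A0308-A0310. Nkg7 lies on chromosome 7, 43437073 to 43438249 on the plus strand of GRCm38.

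Eomes, the T-box factor of memory CD8 T cells and natural killer cells, had 13.7, 27.0 and 15.6 CPM in the A0301-A0303 populations and 245, 162 and 192 CPM in the A0308-A0310 populations (log2 fold change -3.41 ± 0.40, edgeR adjusted p = 0.0156). Ifng, the cytokine interferon gamma, had 35.5, 59.3 and 49.9 CPM in A0301-A0303 against 300.2, 284 and 229 CPM in A0308-A0310 (-2.49 ± 0.31, edgeR adjusted p = 0.0156). Cd8a had 105, 43.1 and 37.5 CPM in A0301-A0303 against 367, 336 and 976 CPM in A0308-A0310 (-3.17 ± 0.54, edgeR adjusted p = 0.0487). For all 3 genes each A0308-A0310 population was above each A0301-A0303 population, and for Cd8a population A0310 was the highest by far. Eomes was found in 3, 1 and 1 cells of the A0301-A0303 populations, and its level there rests on them.

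Of the 14 genes of the cytotoxic list that were tested, 0 rose and 2 fell, Nkg7 and Ifng; 10 had ranges that did not overlap, all higher in the A0308-A0310 populations, and the median log2 fold change was -2.04 against -0.01 for all genes. Ccl5, a chemokine of effector CD8 T cells, had 1897, 985 and 563 CPM in the A0301-A0303 populations and 5234, 4674 and 3437 CPM in the A0308-A0310 populations, and missed the limit (edgeR adjusted p = 0.0766). Gzmk, a granzyme of memory-like CD8 T cells, had 56.4, 22.6 and 37.5 CPM in A0301-A0303 against 236, 78.7 and 220.5 CPM in A0308-A0310 (edgeR adjusted p = 0.148). Gzmb, the granzyme of fully armed killer cells, had 274, 84.1 and 36.4 CPM in A0301-A0303 against 76.0, 104.5 and 204.5 CPM in A0308-A0310, so its ranges overlapped. Summed over the list, the level was 3655, 1839 and 1023 CPM in the A0301-A0303 populations and 8523, 8033 and 7021 CPM (normalised) in the A0308-A0310 populations.

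Slamf6, a receptor of long-lived memory-like T cells, had 12.7, 17.2 and 4.16 CPM in the A0301-A0303 populations and 143, 136 and 95.3 CPM in the A0308-A0310 populations (log2 fold change -3.44 ± 0.56, edgeR adjusted p = 0.0428). Dusp2, a phosphatase that restrains MAP kinase signalling, had 113, 91.6 and 128 CPM in A0301-A0303 against 385, 359 and 484 CPM in A0308-A0310 (-1.88 ± 0.25, edgeR adjusted p = 0.0171). Fyb, an adaptor that links the T cell receptor to integrins, had 238, 244 and 204 CPM in A0301-A0303 against 659, 568 and 596 CPM in A0308-A0310 (-1.41 ± 0.19, edgeR adjusted p = 0.0171). The 6 values of each gene fell into the 2 sets with no overlap, and those of Fyb and Dusp2 were close together within a set.

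The other named genes that were lower in the A0301-A0303 set were Gramd3, a GRAM domain protein, Efhd2, a calcium-binding actin regulator, and Coch, an extracellular protein best known from the inner ear. Gramd3 had 38.2, 44.2 and 15.6 CPM in the A0301-A0303 populations and 356, 178 and 432 CPM in the A0308-A0310 populations (log2 fold change -3.30 ± 0.47, edgeR adjusted p = 0.0244). Efhd2 had 82.8, 51.7 and 52.0 CPM in A0301-A0303 against 241, 268 and 338 CPM in A0308-A0310 (-2.18 ± 0.31, edgeR adjusted p = 0.0244). Efhd2 has no listed value under 6 reads, and with the gap filled it was no longer called (log2 fold change -0.61, edgeR adjusted p = 0.15, range over alternatives 5.43e-07 to 0.747). Coch had 1 read in the A0301-A0303 set against 168 in the A0308-A0310 set, in 7, 1 and 4 cells, so all of its reads in population A0309 came from 1 cell (edgeR adjusted p = 0.0393). The other called gene that was lower encodes a ribosomal protein.

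Areg, the gene of amphiregulin, a growth factor that regulatory T cells and type 2 innate lymphoid cells use in tissue repair, rose in the A0301-A0303 populations. It had 308.5, 547 and 237 CPM in the A0301-A0303 populations, against 16.5, 28.3 and 38.5 CPM in the A0308-A0310 populations (log2 fold change 3.73 ± 0.44, edgeR adjusted p = 0.0156), and was found in 11, 11 and 6 cells of A0301-A0303 and in 2, 2 and 3 of A0308-A0310. All A0301-A0303 values were above all A0308-A0310 values. No listed value of Areg is under 6 reads; with 5 reads put in place of each 0, the largest number that the gap can hide, the log2 fold change was 0.92 and the gene was not called (edgeR adjusted p = 0.0815, range over alternatives 5.28e-15 to 0.643). Areg lies on chromosome 5, 91139599 to 91148432 on the plus strand of GRCm38.

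Its promoter is shown for the cyclic AMP response element TGACGTCA, the letters bound by CREB and ATF factors. Among the 31 called genes with a RefSeq promoter, only Areg had it in the RefSeq window. Called genes without a RefSeq promoter were not searched. The element starts 61 bases before the gene's start (RefSeq, GRCm38.p6, chr5:91139349-91139598, plus strand), and capitals mark it.
Areg: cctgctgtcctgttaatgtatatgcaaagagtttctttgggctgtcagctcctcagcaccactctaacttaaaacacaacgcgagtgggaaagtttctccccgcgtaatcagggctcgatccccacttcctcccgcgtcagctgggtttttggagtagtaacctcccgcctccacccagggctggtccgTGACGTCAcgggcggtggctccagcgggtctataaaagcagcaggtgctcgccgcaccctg
TGACGTCA, which reads the same on both strands, stands in 1.88% of all 27025 promoters of the table and in 3.69% of the 6821 of genes tested here, counted over 300 bases of which the last 50 follow the start. No other motif searched was found in this window, and a match is a description of the letters only.

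Within the cells with Il1rl1 or Gata3, Areg had 569, 567 and 538 CPM in 28, 24 and 23 cells of the A0301-A0303 populations, against 21.9, 0 and 0 CPM in 20, 12 and 8 cells of the A0308-A0310 populations. The cells chosen this way differed in kind between the sets. Il1rl1 itself had 1122, 1619 and 1429 CPM in these cells of the A0301-A0303 populations and 273, 0 and 17.7 CPM in those of the A0308-A0310 populations, while Cd8a had 87.5, 1.78 and 50.9 CPM in A0301-A0303 against 85.3, 824 and 674 CPM in A0308-A0310.

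Of the 17 regulatory T cell genes tested, 1 rose, Areg, and 0 fell. Ranges did not overlap for 12, all higher in the A0301-A0303 populations, which held for 8.05% of all genes tested. The median log2 fold change of the list was 1.63. Klrg1 had 319, 449.5 and 466 CPM in the A0301-A0303 populations and 36.4, 0 and 11.8 CPM in the A0308-A0310 populations, and missed the limit (edgeR adjusted p = 0.0559). Il1rl1 had 583, 981 and 526 CPM in A0301-A0303 against 82.7, 0 and 4.28 CPM in A0308-A0310 (edgeR adjusted p = 0.15), and Il2ra had 544, 748 and 371 CPM in A0301-A0303 against 167, 111 and 34.3 CPM in A0308-A0310 (edgeR adjusted p = 0.102). Foxp3 had 106, 205 and 162 CPM in A0301-A0303 against 16.5, 86.1 and 0 CPM in A0308-A0310, and Il10, the anti-inflammatory cytokine, 255, 654 and 255 CPM in A0301-A0303 against 104, 50.4 and 0 CPM in A0308-A0310. Every A0301-A0303 value of these 5 genes was above every A0308-A0310 value, with none of them called.

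Genes shared with type 2 innate lymphoid cells were on the same side. Of 8 tested, 2 rose, Areg and Arg1, and 0 fell. Areg stands in the regulatory T cell list as well, so its call is counted in both. Ranges did not overlap for 7, and the median log2 fold change was 2.44. Arg1, the arginine-cleaving enzyme of type 2 innate lymphoid cells and some macrophages, had 157, 115 and 69.7 CPM in the A0301-A0303 populations and was listed at 0 in every cell of the A0308-A0310 set (edgeR adjusted p = 0.0156). It rested on 3, 2 and 4 cells, and in population A0302 a single cell gave 93.5% of its reads. Since no value under 6 reads is listed for Arg1, a listed 0 can hide reads and no fold is given, and the filled table gave a log2 fold change of 0.34 and no call (edgeR adjusted p = 0.594, range over alternatives 5.29e-12 to 0.594). Rora, a transcription factor needed for innate type 2 cells, had 628, 764 and 725 CPM in A0301-A0303 against 309.5, 280.3 and 114.5 CPM in A0308-A0310, and Gata3, the master factor of type 2 lymphocytes, had 177.5, 253 and 267 CPM in A0301-A0303 against 79.4, 94.7 and 51.4 CPM in A0308-A0310, both with no overlap and with edgeR adjusted p = 0.103 and 0.0897.

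Cd163l1, Tmem176b and Trgc1, genes of IL-17-type gamma-delta T cells, rose in the A0301-A0303 populations. Cd163l1 had 642, 525 and 1101 CPM there, against 127, 246 and 184 CPM in the A0308-A0310 populations (log2 fold change 2.03 ± 0.34, edgeR adjusted p = 0.0447), and Tmem176b, a membrane protein abundant in such cells, had 832, 648 and 1018 CPM in A0301-A0303 against 50.3, 178 and 163 CPM in A0308-A0310 (2.69 ± 0.43, edgeR adjusted p = 0.041). Trgc1, the gamma-chain constant gene, had 391, 324 and 626 CPM in A0301-A0303 against 25.8, 86.1 and 77.1 CPM in A0308-A0310 (2.85 ± 0.46, edgeR adjusted p = 0.0428), but its near-identical copies make its count uncertain. For all 3 genes the sets did not overlap, and population A0303 was the highest of its set.

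Of the 11 genes of this list that were tested, 2 rose, Cd163l1 and Tmem176b, 0 fell, and 7 had ranges that did not overlap, with a median log2 fold change of 1.79. The cytokine gene itself did not separate the sets: Il17a had 94.7, 154 and 368 CPM in the A0301-A0303 populations and 33.7, 19.7 and 542 CPM in the A0308-A0310 populations. Within the cells with Trdc or Cd163l1, which numbered 17, 13 and 20 in the A0301-A0303 populations and 9, 10 and 7 in the A0308-A0310 populations, Tmem176b had 1966, 1756 and 2261 CPM in A0301-A0303 against 282, 916 and 1119 CPM in A0308-A0310, so its ranges did not overlap there either.

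Abundant called genes included Crip1, a small zinc-binding LIM protein, Vim, the intermediate filament vimentin, and S100a4 and S100a6, calcium-binding proteins tied to cell movement. These genes fall outside the naming rule and were chosen after their values were seen. Crip1 had 3356.5, 3489 and 2943 CPM in the A0301-A0303 populations, against 1157, 912 and 799.7 CPM in the A0308-A0310 populations (log2 fold change 1.77 ± 0.16, edgeR adjusted p = 0.0095). The populations of each set lay close together and far from the other set. Crip1 has no listed value under 11 reads, and with the gap filled its log2 fold change was 1.43 and it was still called (edgeR adjusted p = 0.00609). Over 23 alternatives it was called in 21, with an adjusted p of 1.91e-22 to 0.0616.

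Vim had 3425, 3415 and 3005 CPM in the A0301-A0303 populations, against 1531, 1314 and 1532 CPM in the A0308-A0310 populations (log2 fold change 1.17 ± 0.12, edgeR adjusted p = 0.00999). S100a4 had 2432, 3327 and 2395 CPM in A0301-A0303 against 931, 1148 and 697 CPM in A0308-A0310 (1.55 ± 0.20, edgeR adjusted p = 0.0171), and S100a6 had 3284, 2939 and 2997 CPM in A0301-A0303 against 1194, 1494 and 1627 CPM in A0308-A0310 (1.10 ± 0.14, edgeR adjusted p = 0.0156). None of these ranges overlapped. In the cells with Cd8a or Cd8b1, which numbered 7, 6 and 5 in the A0301-A0303 populations and 32, 18 and 42 in the A0308-A0310 populations, Crip1 had 2386, 2427 and 1465 CPM in A0301-A0303 against 984, 728 and 469 CPM in A0308-A0310, again with no overlap, while Vim overlapped with 3030, 2442 and 1227 CPM in A0301-A0303 against 1371, 1043 and 1603 CPM in A0308-A0310. In the cells with Trdc or Cd163l1, Crip1 overlapped, with 3463, 3833 and 2167 CPM in A0301-A0303 against 1962, 2473 and 3505 CPM in A0308-A0310.

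The Crip1 window is shown because 4 of the 21 higher genes with a RefSeq promoter held the GATA letters AGATAA (or TTATCT), bound by factors such as Gata3, namely Crip1, Ccr2, Ccr3 and Cd163l1, as did Fyb among the 10 lower genes. In Crip1 they start 129 bases before the gene's start (RefSeq, GRCm38.p6, chr12:113151762-113152011, plus strand), and capitals mark them.
Crip1: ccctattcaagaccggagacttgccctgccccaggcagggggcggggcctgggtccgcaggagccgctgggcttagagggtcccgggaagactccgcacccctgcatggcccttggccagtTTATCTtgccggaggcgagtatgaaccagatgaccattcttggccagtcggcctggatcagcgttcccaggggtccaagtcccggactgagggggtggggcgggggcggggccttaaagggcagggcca
The letters stand in 11.4% of all promoters of the table and in 6.16% of those of genes tested here. The AP-1 site TGANTCA was found in 2 higher genes, AA467197 and Ccr3, and in 7.93% of all promoters and 4.75% of those of genes tested. The T-box letters AGGTGTGA (or TCACACCT), bound by factors such as Eomes, were in 1 higher gene, AA467197, and 1 lower gene, Nkg7, and in 1.27% of all promoters and 0.836% of those of genes tested. The letters searched for NF-kB (GGGANTTCC) and Runx factors (TGTGGTTT) were in none of the 31 windows, against 1.70% and 1.86% of all promoters. The Cxcl2 window holds a longer run, GGGAATTTCC, which those NF-kB letters do not match. Other forms of NF-kB sites were thus not counted. Both strands were searched, and no 2 matches overlapped.

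**Figure D3:**
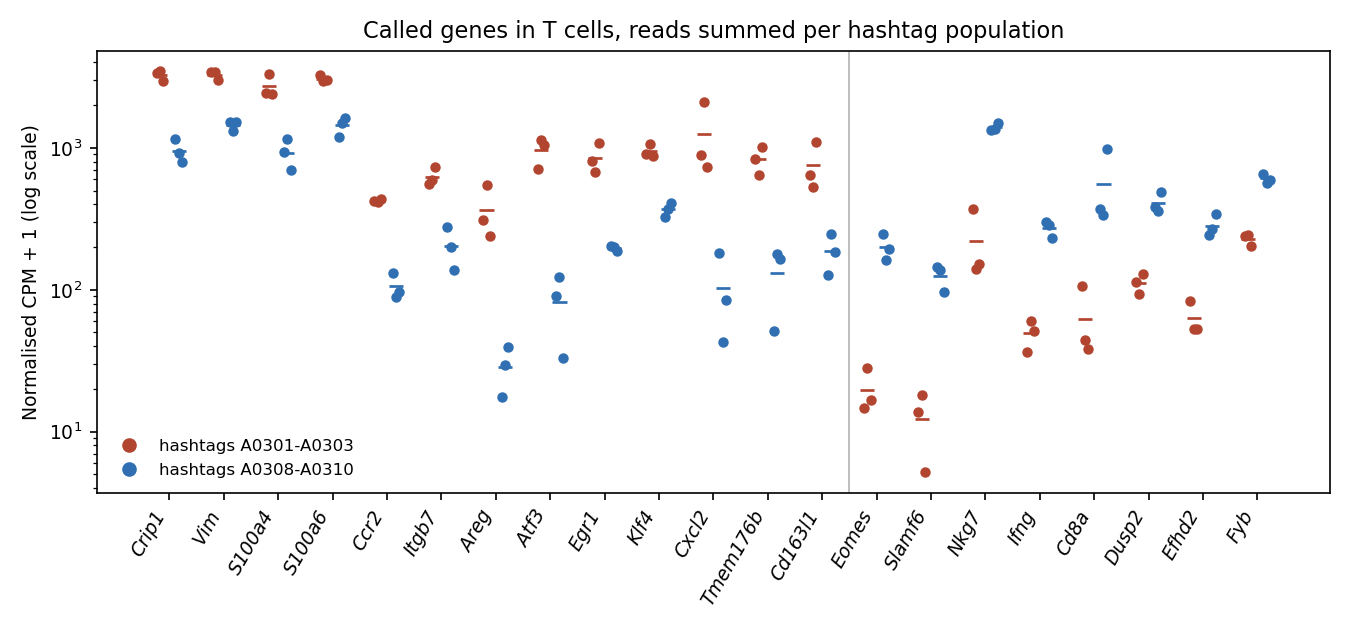
Normalised CPM plus 1 of called genes in T cells, on a log scale. Points are the 3 hashtag populations of each set, red for A0301-A0303 on the left and blue for A0308-A0310 on the right of each gene, bars are means of 3, and the grey line parts genes higher in A0301-A0303 from genes lower in A0301-A0303. No gene shown has a red point between its blue points, and Crip1 lies at 2943 to 3489 CPM in red and at 799.7 to 1157 CPM in blue.

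The homing genes Ccr2, Itgb7 and Ccr3 rose in the A0301-A0303 populations. Ccr2, the receptor for the monocyte-attracting chemokine CCL2, had 420.5, 417 and 432 CPM in the A0301-A0303 populations and 131, 88.5 and 95.3 CPM in the A0308-A0310 populations (log2 fold change 2.01 ± 0.24, edgeR adjusted p = 0.0156). Itgb7, an integrin chain of gut and tissue homing, had 552, 592 and 737 CPM in A0301-A0303 against 274, 198 and 136 CPM in A0308-A0310 (1.62 ± 0.27, edgeR adjusted p = 0.0487). The 3 values of Ccr2 in the A0301-A0303 set were nearly equal, and neither gene's ranges overlapped. Ccr3, the eotaxin receptor, had 61.9, 33.4 and 48.9 CPM in the A0301-A0303 populations, from 4, 5 and 5 cells. It had 0 reads in the A0308-A0310 set (edgeR adjusted p = 0.0447). A single cell gave 36.8%, 51.6% and 36.2% of the Ccr3 reads in A0301, A0302 and A0303. Reads of a cell are not independent, so no fold is given. Of 20 chemokine receptor and integrin genes tested, 2 rose, Ccr2 and Itgb7, and 0 fell. Of 14 tissue residency genes tested, 1 rose, Ccr2, and 0 fell; Cd69, which holds T cells in tissue, had 1013, 1494 and 1074 CPM in A0301-A0303 against 679, 772 and 727 CPM in A0308-A0310 (edgeR adjusted p = 0.177).

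Immediate early genes are switched on within minutes of receptor signals or of stress such as tissue digestion. Of 23 tested, 4 rose, Atf3, Egr1, Klf4 and Nfkbiz, and 1 fell, Dusp2; 13 had ranges that did not overlap with higher A0301-A0303 values and 1 with lower, and the median log2 fold change was 0.71. Atf3, a stress-induced transcription factor, had 704, 1129 and 1042 CPM in the A0301-A0303 populations, against 89.3, 122 and 32.1 CPM in the A0308-A0310 populations (log2 fold change 3.56 ± 0.43, edgeR adjusted p = 0.0156). Egr1, an early growth response factor, had 812, 672 and 1078 CPM in A0301-A0303 against 202, 198 and 186 CPM in A0308-A0310 (2.13 ± 0.21, edgeR adjusted p = 0.00999). Klf4, a quiescence factor, had 900.1, 1066 and 882 CPM in A0301-A0303 against 326, 369 and 409 CPM in A0308-A0310 (1.37 ± 0.17, edgeR adjusted p = 0.0156), and Nfkbiz, an inducible NF-kB cofactor, had 762, 1114 and 832 CPM in A0301-A0303 against 416, 334 and 253 CPM in A0308-A0310 (1.43 ± 0.23, edgeR adjusted p = 0.0428). Each A0308-A0310 value of these 4 genes was below each A0301-A0303 value.

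The lowest listed values of Atf3, Egr1 and Klf4 are 10, 10 and 9 reads, and with the gap filled their log2 fold changes were 1.15, 0.87 and 0.68, with the calls kept (edgeR adjusted p = 0.0149, 0.0386 and 0.0448; ranges over alternatives 2.94e-21 to 0.478, 8.92e-16 to 0.999 and 6.39e-09 to 0.469). The early genes Fos and Jun had 2122, 2682 and 3370 CPM and 1054, 1636 and 2035 CPM in the A0301-A0303 populations, against 1447, 1622 and 1803 CPM and 410.0, 704.5 and 839 CPM in the A0308-A0310 populations, and neither was called (edgeR adjusted p = 0.147 and 0.148). Of 11 heat shock genes tested, 0 rose, 0 fell and the median log2 fold change was 0.06. In the other cells of the same suspensions Atf3, Egr1, Klf4 and Nfkbiz were also called higher in the A0301-A0303 set, with log2 fold changes of 0.57, 1.20, 1.23 and 0.85.

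The other named genes that were higher in the A0301-A0303 set were Cxcl2, a neutrophil-attracting chemokine, Ltb4r1, a leukotriene B4 receptor, Irs2, an adaptor of the insulin and IL-4 receptors, Phlda1, a stress-induced protein, and AA467197, known as Nmes1. Cxcl2 had 895, 2118 and 734 CPM in the A0301-A0303 populations and 179.9, 41.8 and 83.5 CPM in the A0308-A0310 populations (log2 fold change 3.59 ± 0.57, edgeR adjusted p = 0.0393). It was found in 45, 35 and 40 cells of the A0301-A0303 populations and in 54, 22 and 33 of the A0308-A0310 populations, at any level. Such counts of cells are not read as expression, since the macrophage gene Lyz2 was found at any level in 55, 45 and 52 cells of A0301-A0303 and in 79, 47 and 51 of A0308-A0310. A single cell gave 33.6% of the Cxcl2 reads in population A0302 and 38.2% in population A0308. Ltb4r1 had 243, 347 and 266 CPM in A0301-A0303 against 19.8, 44.3 and 13.9 CPM in A0308-A0310 (3.47 ± 0.45, edgeR adjusted p = 0.0171). Irs2 had 147, 296 and 262 CPM in A0301-A0303 against 29.1, 45.5 and 45.0 CPM in A0308-A0310 (2.57 ± 0.38, edgeR adjusted p = 0.0274), and Phlda1 had 283, 344 and 243 CPM in A0301-A0303 against 84.6, 48.0 and 52.5 CPM in A0308-A0310 (2.22 ± 0.32, edgeR adjusted p = 0.0244). AA467197 had 93.7, 207 and 85.3 CPM in A0301-A0303 against 1.32, 6.15 and 5.35 CPM in A0308-A0310, from 8, 10 and 9 cells of A0301-A0303 and 1, 1 and 2 of A0308-A0310 (edgeR adjusted p = 0.0238). No pair of ranges overlapped.

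Also called higher in the A0301-A0303 set were Cish, a feedback inhibitor of cytokine signalling (log2 fold change 1.65), H2-D1, an MHC class I heavy chain whose close relatives make its count uncertain (0.53), Plp2 (2.03), Atp2b1, a calcium pump (2.01), Tagln2, an actin-binding protein (1.36) and Itm2b (0.93), beside 1 Gm-numbered transcript. Plp2, Atp2b1, Tagln2 and Itm2b fall outside the naming rule and were chosen after their values were seen. Over the 39 called genes, 12 lack listed values from 1 to 4 reads; with the gaps filled, 36 of the 39 were called, and Arg1, Areg and Efhd2 were not.

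T cell receptor signalling and exhaustion genes gave few calls. Of 18 signalling genes tested besides Lat, 0 rose and 0 fell, 1 and 6 had ranges that did not overlap with higher values in the A0301-A0303 and the A0308-A0310 set, and the median log2 fold change was -0.64. Lck, the kinase that starts receptor signalling, had 197.5, 130 and 211 CPM in the A0301-A0303 populations and 418, 309.9 and 445 CPM in the A0308-A0310 populations (edgeR adjusted p = 0.148). Of 12 checkpoint and exhaustion genes tested, 0 rose and 1 fell, Eomes. Ranges did not overlap for 4, all higher in the A0308-A0310 set, and the median log2 fold change was -1.73. Lag3, an inhibitory receptor, had 16.4, 0 and 5.20 CPM in A0301-A0303 against 83.3, 114 and 119.9 CPM in A0308-A0310. Tox, a factor of chronically stimulated T cells, had 81.0, 170 and 45.8 CPM in A0301-A0303 against 426, 181 and 595 CPM in A0308-A0310. Neither Lag3 nor Tox was called. Pdcd1 had 118, 135 and 175 CPM in A0301-A0303 against 104, 84.8 and 200.2 CPM in A0308-A0310, with overlapping ranges. Of 13 genes of naive and recirculating T cells, 0 were called in either direction and the median log2 fold change was -0.59.

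Metabolic and housekeeping programmes did not separate the sets by the test. No gene was called among 14 of glycolysis, 19 of oxidative phosphorylation, 17 of lipid uptake and fatty acid oxidation, 18 of proliferation and 23 of the interferon response, with median log2 fold changes of 0.05, 0.06, 0.47, 0.13 and -0.62. Of the 17 lipid genes, 16 had a positive log2 fold change. Ranges did not overlap for 6 of them, all higher in A0301-A0303, and for 4 of the 23 interferon genes, all higher in A0308-A0310. Pparg, the fat-cell factor that fat regulatory T cells also use, had 67.4, 66.8 and 67.6 CPM in the A0301-A0303 populations and 13.9, 1.23 and 1.07 CPM in the A0308-A0310 populations, with no overlap and an edgeR adjusted p of 0.203. Plin2, a lipid droplet coat protein, had 223, 285 and 122 CPM in A0301-A0303 against 74.7, 56.6 and 76.0 CPM in A0308-A0310 (edgeR adjusted p = 0.145).

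**Figure D4:**
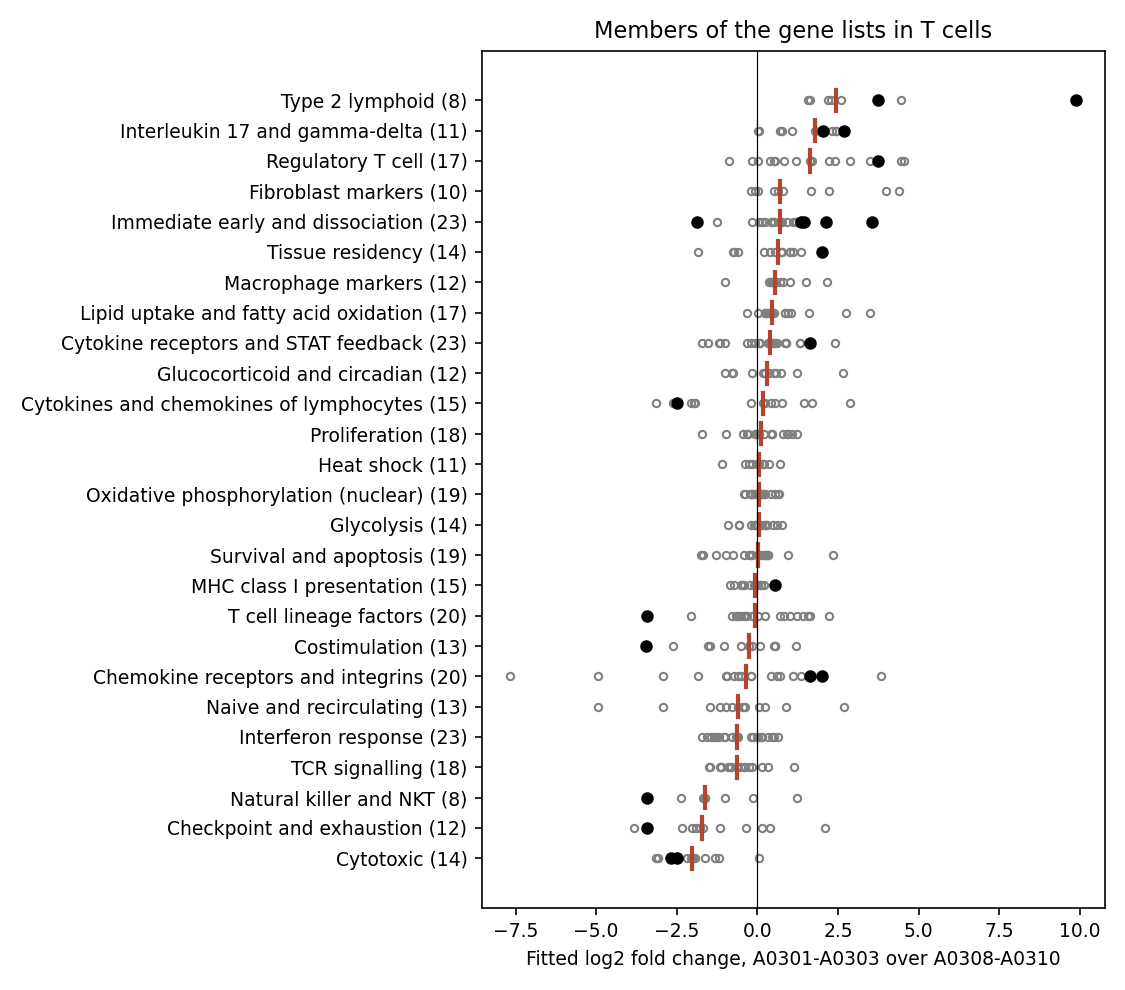
Fitted log2 fold changes of A0301-A0303 over A0308-A0310 for the members of the gene lists with at least 8 genes tested (number in brackets). Open points are genes not called, black points are called genes and red bars are list medians. Medians run from -2.04 for the cytotoxic list to 2.44 for the type 2 lymphoid list, and a gene can stand in several lists. The fitted values of Arg1 and Cxcr5, which are listed at 0 in 1 of the sets, are no bounds.

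Reads of other cell types were present in the T cell sums. The 12 macrophage genes tested gave 0 calls, and the list summed to 2129, 1635 and 3212 CPM in the A0301-A0303 populations and 1715, 1287 and 885 CPM in the A0308-A0310 populations. The 10 fibroblast genes tested gave 0 calls, and the list summed to 400.4, 691 and 1725 CPM in A0301-A0303 against 454, 234 and 301.9 CPM in A0308-A0310, with Dcn, a matrix proteoglycan, at 760.4 CPM in population A0303 and at 0 in populations A0309 and A0310. The B cell list summed to 45.5, 95.9 and 49.9 CPM in A0301-A0303 against 124, 129 and 62.1 CPM in A0308-A0310, and 3 of its members had 0 reads. Of the 371 T cells, 173 had no read of the 5 other-cell markers of the rule. In these cells alone 5 genes were called, and 3 of them, Crip1, Tmem176b and Nkg7, were among the 39. With fewer cells tested, several genes that lost their call, chosen here after their values were seen, had fold changes near those in all T cells: the log2 fold change in these cells was 3.78 for Atf3, 2.65 for Irs2 and -3.06 for Cd8a, against 3.56, 2.57 and -3.17 in all T cells. The part of such reads in the other calls was not tested.

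The calls moved when a kind of cell was left out. Without the 110 cells with Cd8a or Cd8b1, an alternative chosen after the data were seen, 261 cells were left and 6 genes were called, 5 of them among the 39: Crip1, Vim, S100a4, Atf3 and Egr1. Their log2 fold changes were then 1.42, 1.23, 1.42, 3.18 and 2.49. Nkg7 and Ifng kept values of -2.77 and -3.14 in these cells with no call (edgeR adjusted p = 0.135 and 0.123). Without cells with Trdc or Cd163l1, 55 genes were called, more than with them, 31 of them among the 39, and without cells with Il1rl1 or Gata3, 15 and 10.

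To see which changes were shared with the rest of the suspensions, the change in T cells was set against the change in all other cells of the same 6 populations in 1 edgeR model with the population as a block. The other cells differ between the sets in kind, as the macrophage counts show, and 44% of the genes were called in them. The change differed between T cells and other cells for 186 genes (2.07%), 157 of them with a higher change in T cells, and 16 of the 39 called genes were among them. Of the 39, other cells had a called change the same way for 14 and the opposite way for 11. Vim, S100a4, Cxcl2 and Plp2 rose in T cells, with log2 fold changes of 1.17, 1.55, 3.59 and 2.03, and fell in the other cells, with -0.53, -1.79, -2.05 and -0.96, and each difference was called (edgeR adjusted p = 0.0073, 0.0248, 0.00965 and 0.0073). For Crip1 the change in other cells was -0.06 and not called, and the difference of 1.84 was (edgeR adjusted p = 0.00917). Ltb4r1, Klf4 and S100a6 rose in both, with log2 fold changes of 2.56, 1.23 and 1.03 in other cells. Fyb had log2 fold changes of -1.41 in T cells and -2.46 in other cells, a difference that was not called.

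**Figure D5:**
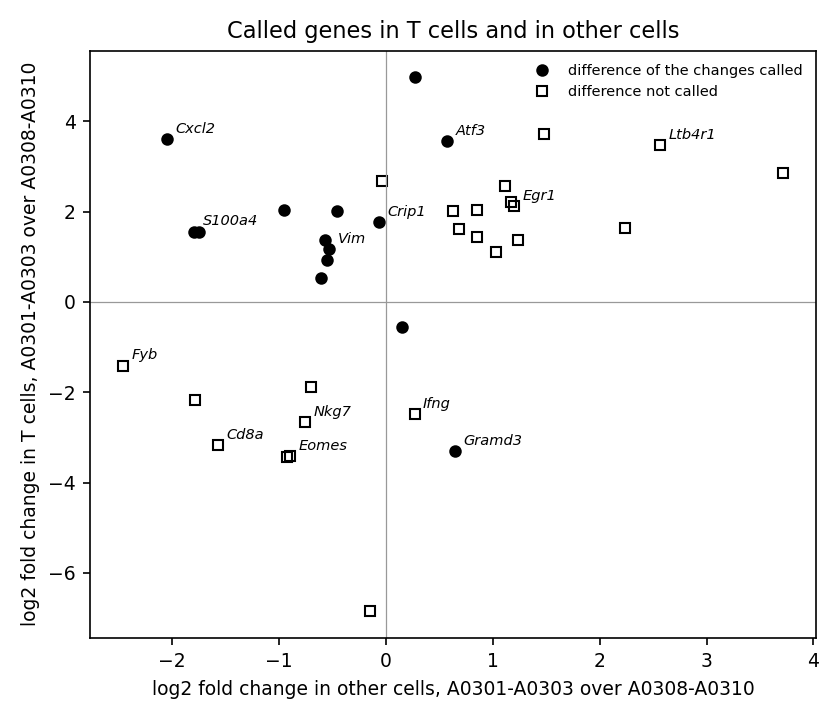
Log2 fold change of A0301-A0303 over A0308-A0310 in T cells (vertical) against that in all other cells of the same populations (horizontal), for called genes with reads in both sets. Filled circles are genes whose changes differed between T cells and other cells (adjusted p under 0.05), and open squares are the rest. Cxcl2, S100a4 and Vim lie to the upper left, higher in T cells and lower in other cells of the A0301-A0303 set, and Ltb4r1 lies to the upper right, higher in both.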

How the data were processed

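The authors deposited a transcriptome table of whole-number counts, 1 column per cell, and a second table with whole-number counts of each hashtag per barcode. GRCm38 is the build named per the submitters' processing notes, which list R 3.6.3, Bowtie2 2.4.2 and cutadapt 2.10 without roles. The name under which the transcriptome counts were deposited holds the terms inflection, demulti and DBEC. How cells were called and tags assigned was not stated further in any label or header. No collapse to molecules is recorded, so counts were treated as reads, which are not independent molecules, and intervals and floors cover counting error only. For 389 genes seen in over 100 cells no value from 1 to 4 is listed. Whether a correction before deposit removed such values as background was not tested. Of 12040 columns, 290 (278 named as doublets, 12 with no tag) were not used; no barcode was repeated.

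Reads were summed per tag over the T cells. edgeR 4.0.16 (filterByExpr, TMM, robust quasi-likelihood) in R 4.3.3 gave fold changes, tested on simulated data with the real samples' means; DESeq2 1.42.0 and limma 3.58.1 (on log2 of CPM plus 10) were alternatives. Shares used exact permutation tests and marker shares were repeated after thinning each cell to 5000 reads. Python 3.11.15 and matplotlib 3.10.9 drew the plots. Gene positions are from GENCODE M21, promoters from RefSeq GRCm38.p6, 1 per gene. Lists of 449 genes and the members were chosen with earlier results of these data known. Genes are named where among the 12 called genes up and 12 down with the largest fold change, at least 20 CPM and no overlap (10 passed down; ribosomal, mitochondrial and Gm- or Rik-numbered names were counted only), where among the 5 with the smallest p of a list, or where a count turns on them. Other list members that are given were chosen after their values were seen. Alternatives covered the normalisation, low-count filters, marker limits, the mitochondrial limit, depth, gap filling and each population left out. Results that need a few withheld genes are not reported here.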

Additional observations from a re-analysis of the deposited data

Results flagged for a closer look

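The change between the sets differed between T cells and the other cells of the same suspensions for 33 of the named genes, by edgeR's interaction test with adjusted p from 0.002998 to 0.0499. Each value is the log2 fold change in T cells minus that in other cells. Which kinds of other cells set the second term was not tested.

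Among genes called in T cells, the difference was 1.84 for Crip1, 1.67 for Vim, 3.17 for S100a4, 1.94 for Tagln2, 1.47 for Itm2b, 2.95 for Plp2 and 2.49 for Atp2b1. It was 5.67 for Cxcl2, 3.10 for Atf3, 4.59 for AA467197 and 1.12 for H2-D1, and -3.97 for Gramd3. The fitted values of 14.73 for Arg1 and 15.72 for Ccr3 depend on the prior count, since both genes were listed at 0 in the A0308-A0310 T cells.

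Among genes not called in T cells, the difference was 5.59 for Lgals3, 4.70 for Pparg, 4.21 for Plin2, 2.97 for Fabp5 and 2.98 for Ctsb. H2-Ab1 and Cd74 gave 2.42 and 1.31. Ldha, Aldoa and Ndufb8 gave 1.20, 1.13 and 1.45. Rgs2 gave 3.03, Cdkn1a 2.51, Ramp1 2.32 and H2az1 1.71. The difference was below 0 for Fyn at -2.06, Nr4a2 at -2.33, Irf1 at -1.56, Bhlhe40 at -1.95 and Ighm at -4.07.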

How the results depend on the processing

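Against 28 genes higher and 11 lower in the A0301-A0303 set, DESeq2's Wald test called 134 and 68, no filter on low counts 113 and 58, cells thinned to 5000 reads 68 and 36, and limma on mean CPM per cell 74 and 39. A floor of 20 CPM called 45 higher, and all 9 tags in the fit 51. Asking for at least 3 markers gave 15 and 1, other-cell markers under 100 CPM 14 and 3, and leaving out cells with Klrb1c, Ncr1 or Il1rl1 8 and 1. Chosen after seeing the data, leaving out cells with Cd8a or Cd8b1 gave 5 and 1, cells with Il1rl1 or Gata3 12 and 3, cells with any other-cell marker read 4 and 1, and cells with Trdc or Cd163l1 43 higher. Leaving out 1 population gave 0 to 14 higher and 0 to 2 lower, and 41 to 135 genes, against 186, whose change differed from other cells. The cause of these shifts was not tested. Settings that left out cells or populations rest on fewer of them. No filter on low counts tested 21683 genes, while DESeq2's Wald test and limma tested the same 8992. Over 836 combinations of a called gene and an alternative, 455 kept the call, 381 lost it in the same direction and 0 reversed; with 1 population left out, 28 of 222 kept it. The T cell share differed by 16.6 points among cells with Ptprc, against 1.23 points. No paired analysis was possible because the labels give no number that pairs a tag of one set with a tag of the other. With 3 populations a side and 48 to 86 T cells each, genes found in few cells rest on those cells.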

Other observations

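Tags A0304, A0305 and A0307 are in neither set and the labels tie them to no group. They held 59, 57 and 48 T cells, which were 5.37%, 4.66% and 3.92% of their cells under the mitochondrial limit. On CPM scaled by the total reads of T cells alone, a different scale from the TMM-normalised values above, Crip1 had 2849.5, 1774 and 2887 CPM in these populations. Il1rl1 had 472, 707 and 490.4 CPM and Areg 247, 551 and 99.6 CPM there. The cytotoxic gene Nkg7 had 595, 282 and 272 CPM, and Eomes 26.0, 92.3 and 36.6 CPM. The gamma-delta marker Cd163l1 had 144.5, 43.0 and 226 CPM. Arg1 had 169.6, 314.8 and 166 CPM, while Ccr3 had 0 reads in all 3 populations.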
